A study of Macaca mulatta with 8 samples.

Results

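The actin cytoskeleton genes described here are 37 listed genes for actin itself, the proteins that hold actin monomers, nucleate, cap, bundle or move filaments, the membrane linkers and other regulators that place filaments in the cell, and vimentin. They were chosen by gene symbol, and 33 of the 37 were found by symbol among the 16429 genes of the table. RAC2 was on 2 rows, of which the one with 41170 unique molecular identifiers (UMIs, each a counted RNA molecule) was used and the one with 1 was not. TMSB4X, the main monomer-binding thymosin, has no symbol in the table and was found through its gene identifier. Its values are given beside those of the 33 and enter none of their counts. ARPC1B, ARPC5 and TMSB10 were not analysed here.

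Actin is kept in a T cell as free monomers and as filaments, and monomer binders such as profilin and cofilin set how fast one turns into the other. The Arp2/3 complex starts new branches on existing filaments, capping proteins end their growth, and myosin II pulls on them. T cells use this network to crawl, to spread on antigen-presenting cells and to build the synapse with them, and regulatory T cells (Tregs), which restrain immune responses, need it for the same contacts.

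The samples are rhesus macaque blood cells from a time course of adoptively transferred Tregs, profiled with 10x 3' version 2 chemistry. Frozen mononuclear cells were thawed, enriched for CD4+ cells and sorted by surface phenotype, and each of 4 sorts gave 1 library on day 3 and 1 on day 20. CFSE+ cells carry a dye that thins out with cell division, and the title of the series is the ground for treating them as the transferred Tregs. CD3+CD4+CD25hiCD127lo cells, titled Endo by the submitters and called the Treg gate below (CD25high CD127low in the plots), have the phenotype of the animals' own Tregs. CD3+CD4+CD25posCD127pos cells are called double-positive and CD3+CD4+CD25negCD127pos cells conventional (CD127+ CD25+ and CD127+ CD25- in the plots). No label names an animal, genotype, age or treatment. With 1 library per group there are no replicates and no tests, and every value compares those libraries. The authors gave each cell a class (transTreg, endoTreg or Tconv) and a cluster number, and 7515 cells a finer name such as effector or naive-like Treg. The sources used here do not say how these were made. Of the Treg-gate cells of day 20, 64 carried the name transferred naive-like.

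The libraries held 1149 to 4751 cells and 2992787 to 12149559 UMIs, with a median of 2131 to 3095 UMIs per cell. CD3D was at 1174.5 to 2273.1 CPM (counts scaled to equal library size) in the 8 libraries, whereas CD4 RNA was at 3.47 to 7.29 CPM, so the CD4 label rests on the enrichment and the sort. Ribosomal protein genes took 31.6% of UMIs in the CFSE+ library of day 3 and 39.3 to 42.9% in the other 7, a gap that moves the scale of every other gene. Red cell markers summed to 306.4 to 1559.3 CPM on day 3 and 126.2 to 146.8 CPM on day 20. In all, 767 cells had a barcode sequence that also occurs in another library. Levels are CPM of counts summed over cells, ranges in parentheses after a share are exact 95% intervals for counting error only, and ratios are log2 ratios of CPM + 10. For a call, the ratio had to reach 1.5-fold in one direction on day 3 and on day 20, with 50 CPM or more in 1 of the compared groups each day. Contrasts with 1 value, such as day 20 against day 3, were called on that value. UMI counts of 3' tags are not divided by gene length, so levels are compared between groups and not between genes.

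Of the 8 libraries, the 33 genes took the largest share of UMIs in the CFSE+ library of day 3. Their share there was 2.95% (2.94 to 2.96), and on day 20 the CFSE+ share was 1.98% (1.96 to 1.996). In the Treg-gate libraries, which also hold cells classed Tconv, the share was 2.46% on day 3 and 2.21% on day 20. By class, endoTreg cells of the Treg gate had 2.99% and 2.72%, and transTreg cells of the CFSE+ sort 2.95% and 1.96%. The CFSE+ cells of day 3 were thus not above the endoTreg class. Double-positive cells had 2.01% and 2.12%, and conventional cells 1.93% and 1.96%. The last 2 sorts stayed within a narrow band, and the CFSE+ library of day 20 lay inside it. With TMSB4X added, the CFSE+ share was 4.99% on day 3 and 3.54% on day 20, the highest and the lowest of the 8 libraries. Over the UMIs of named genes other than ribosomal protein, mitochondrial and hemoglobin genes, the share of the 33 on day 3 was 5.31% in CFSE+ cells and 5.46% in the Treg gate, so that order turned. A sum over cells cannot tell fewer cells of a type from less RNA per cell.

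**Figure D1:**
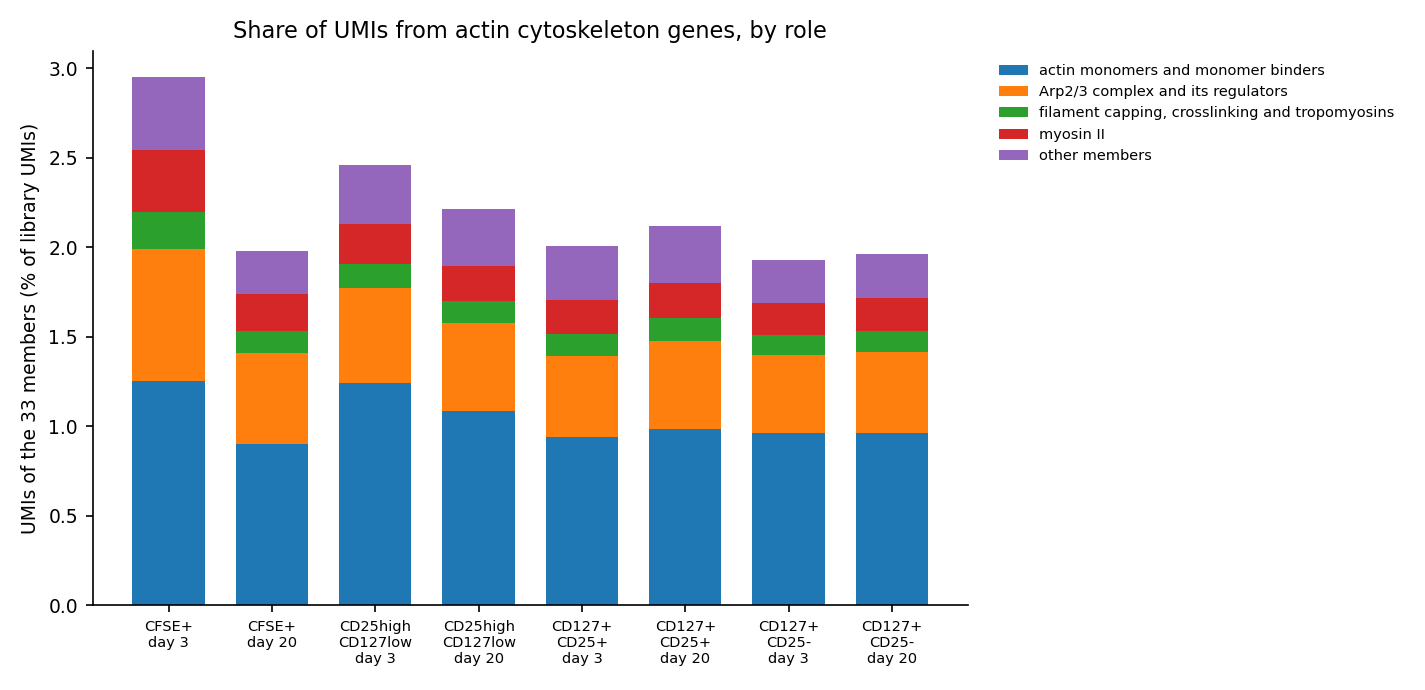
Share of each library's UMIs (y axis, percent) taken by the 33 members, stacked by role with 4 roles apart and the remaining ones joined as other members, for the 4 sorts on day 3 and day 20 (1 library per bar). The CFSE+ bar falls from 2.95% on day 3 to 1.98% on day 20, while the double-positive and conventional sorts stay between 1.93% and 2.12%.

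The high share of the CFSE+ library of day 3 was split by role. Actin monomers and their binders took 1.25% of UMIs there and 1.24% in the Treg-gate library of the same day. The Arp2/3 complex and its regulators took 0.74% against 0.53%, and myosin II 0.35% against 0.22%. The Treg-gate library also holds cells classed Tconv. In its endoTreg cells alone the first role took 1.62% of UMIs, against 1.25% in transTreg cells of the CFSE+ sort. Over the UMIs of named genes as above, monomers and binders took 2.26% in the CFSE+ library and 2.76% in the Treg gate, Arp2/3 1.33% against 1.17% and myosin II 0.62% against 0.49%. On day 20 myosin II took 0.21% of UMIs in the CFSE+ library, close to the 0.20% of the Treg-gate library. As grouped here, the role of monomers and binders also holds WDR1 and COTL1, of which COTL1 binds filaments.

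Of the 33 members, 28 were at their highest of the 8 libraries in CFSE+ cells on day 3. ACTB, COTL1 and VIM were highest in the Treg gate of day 3, ARPC1A in the Treg gate of day 20 and ACTN1 in conventional cells of day 20. Among the day 20 libraries alone, CFSE+ cells were highest for 10 members and lowest for 13. The highest and lowest library was not counted over all genes, so these counts have no background share. Of all tested genes on day 3, 28.5% were at least 1.5-fold higher in CFSE+ cells than in the Treg gate. Against conventional cells 43.7% were.

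In the order CFSE+, Treg gate, double-positive and conventional, ACTB (beta-actin) was at 5555.5, 6489.7, 4824.8 and 5531.3 CPM on day 3. On day 20 the same order gave 4485.8, 5747.1, 5032.4 and 5418.6 CPM. The Treg gate was highest on both days, and CFSE+ cells were lowest on day 20. On day 3 the intervals of CFSE+ (5513.7 to 5597.6 CPM) and conventional cells (5478.4 to 5584.6 CPM) overlapped. ACTG1, the gene for gamma-actin, had 2023.9, 2016.8, 1447.6 and 1097.6 CPM, followed on day 20 by 1352.9, 1731.8, 1562.2 and 1142.9 CPM. Conventional cells were lowest in it on both days. ACTB and ACTG1 code for nearly identical proteins and have processed copies, so reads may have been split between them and near-identical sequences.

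The branching regulators WAS and CORO1A were among the members highest in the CFSE+ sort on both days. The 10 members highest there on day 20 also include PFN1, MYL6 and LCP1 of other roles, so this is not particular to branching regulators. WAS, the activator of Arp2/3 that is mutated in Wiskott-Aldrich syndrome, was at 227.1, 118.3, 107.8 and 115.7 CPM in the same order on day 3, and on day 20 at 155.0, 114.0, 109.0 and 118.9 CPM. The CFSE+ interval of day 20, 141.3 to 169.8 CPM, lay above that of each other sort. CORO1A (coronin 1A, which restrains Arp2/3 and helps clear filaments) had 1849.1, 1164.9, 925.8 and 915.8 CPM, and later 1275.1, 1061.7, 972.6 and 950.3 CPM. Against the Treg gate these are log2 ratios of 0.89 and 0.41 for WAS and of 0.66 and 0.26 for CORO1A, neither of which reached 1.5-fold on day 20.

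Vimentin, the intermediate filament protein of T cells, separated the CD25-bearing sorts from the conventional one. VIM had 1525.8 CPM in the Treg gate on day 3 and 1422.1 on day 20, and double-positive cells had 1344.5 and 1408.6 CPM. Conventional cells had 771.5 and 785.4 CPM. The CFSE+ libraries were near the upper group on day 3, with 1313.7 CPM, and below the conventional cells on day 20, with 709.0 CPM.

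Against conventional cells, Treg-gate cells had 2 members called higher of 32 tested, where 1.99% of all tested genes were called higher, and 0 lower, where 1.03% were. ACTG1 was higher by 0.87 on day 3 and 0.60 on day 20, and VIM by 0.97 and 0.85. The call of ACTG1 did not hold without doublet-like cells or under the 3 other scalings tried, and that of VIM held in each of these. TPM4, a tropomyosin that lies along filaments, was 0.92 and 0.89 higher but stayed under 50 CPM. Double-positive cells, compared with the same controls, had 1 member called higher of 31, VIM at 0.79 and 0.83, where 0.905% of all tested genes were called higher, and 0 lower, where 1.09% were. The median over members was 0.26 and 0.09 in the first comparison and 0.04 and 0.11 in the second, against all-gene medians of 0.10 and 0.06, and 0.01 and 0.06. LMNA, the lamin A/C gene of the nuclear envelope and the only one of the wider cytoskeleton lists called, was higher in both comparisons, by 2.05 and 2.20 and by 1.46 and 2.02.

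**Figure D2:**
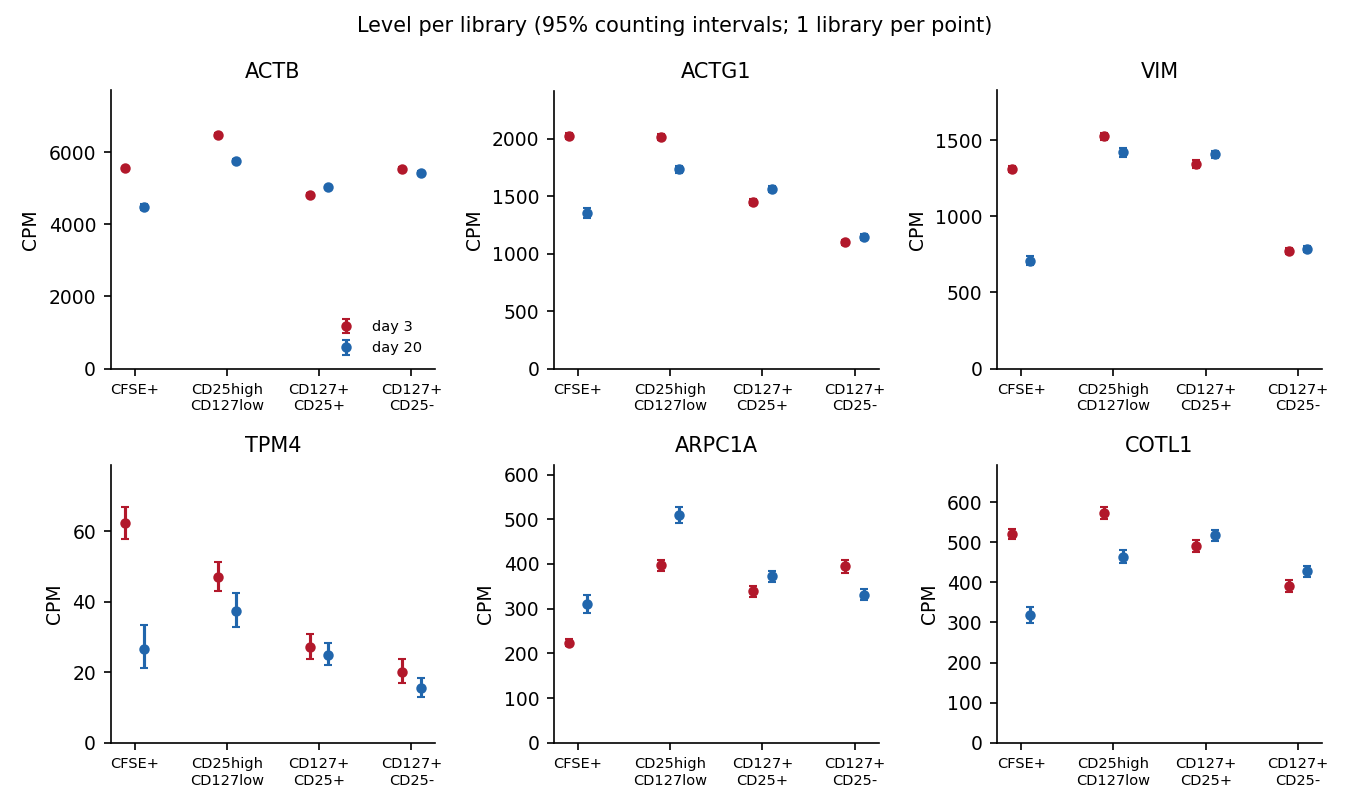
Level (y axis, CPM) of ACTB, ACTG1, VIM, TPM4, ARPC1A and COTL1 in the 4 sorts on day 3 (red) and day 20 (blue), 1 library per point, with 95% counting intervals. VIM is at 771.5 and 785.4 CPM in conventional cells, and in CFSE+ cells it goes from 1313.7 to 709.0 CPM, whereas ARPC1A is lowest in the CFSE+ sort on both days.

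Transferred cells were set against Treg-gate cells on each day. Of 31 members tested on both days, 0 were called higher, where 3.03% of all tested genes were, and 1 lower, where 2.97% were. That gene was ARPC1A, a subunit of the Arp2/3 complex, with 223.8 CPM in CFSE+ and 396.8 CPM in Treg-gate cells on day 3. By day 20 the levels were 309.7 and 509.6 CPM. The ratios were -0.80 and -0.70, and the call held under each scaling tried. CFSE+ cells also had less ARPC1A than the other sorts, except that on day 20 their interval (290.1 to 330.3 CPM) overlapped that of conventional cells (318.5 to 343.6 CPM).

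The days differed in this comparison. On day 3 alone 12 of 33 members were at least 1.5-fold higher in the transferred cells, where 28.5% of all tested genes were. LCP1 (L-plastin, which bundles filaments) was 0.92 higher, with 485.3 against 251.3 CPM, and it and WAS had the largest ratios. The member median was 0.51 on day 3, beside an all-gene median of 0.41. Scaling by TMM factors (trimmed means of ratios), which moved the median gene by -0.30, left a member median of 0.18 beside 0.11 for all genes, and the lower ribosomal share of that library (31.6% against 40.7%) goes with this shift. On day 20 the member median was -0.01, beside 0.05 for all genes, and of 31 members 0 were at least 1.5-fold higher, where 3.16% of all genes were, and 2 lower, ARPC1A and VIM (-0.99), where 4.99% were. The part of the ribosomal share in these counts was not tested.

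Limited to the authors' matching classes, transTreg cells of the CFSE+ sort had 2 members called lower than endoTreg cells of the Treg gate, where 2.81% of all tested genes were, and 0 higher, where 2.18% were. These were ACTB, with 5537.8 CPM against 8575.4 on day 3 and 4365.4 against 7627.4 later, and ARPC1A. Under TMM, median-of-ratios or named-gene scaling ACTG1, COTL1 and VIM were lower as well, and without doublet-like cells (1059 cells with many UMIs or with markers of other blood cells) only ARPC1A was.

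Against conventional cells, 0 of 31 members were called in either direction on both days, where 5.80% of all tested genes were called higher and 2.72% lower. On day 3 alone 24 of 33 members were higher in the transferred cells, where 43.7% of all tested genes were, and 1 lower, where 11.4% were. On day 20 there were 0 and 0, where 6.81% and 4.40% of all tested genes were, with a member median of 0.07 beside 0.11 for all genes. In the wider lists, ABI2, a subunit of the WAVE complex that activates Arp2/3, was higher in transferred cells than in the Treg-gate sort (1.59 and 1.17) and than in the conventional sort (1.47 and 1.26). HCLS1, a cortactin relative of blood cells, was likewise higher than in the first (1.07 and 0.62) and the second (1.27 and 0.86), and ACTN4, an alpha-actinin that crosslinks filaments, was called against the second (0.90 and 0.93). TWF2, CORO1B, TAGLN2, MYO1F and TUBA1A were also called higher than in the second, by 0.62 to 0.88 on day 20. FYB1, an adaptor between the T cell receptor and integrins, was lower than in the second (-0.63 and -0.81). These comparisons share the CFSE+ libraries.

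In the CFSE+ sort most members were lower on day 20 than on day 3. All but 1 of the 33 had a ratio below 0, and 19 were called lower, where 18.5% of all tested genes were, while 0 were called higher, where 7.86% were. The member median was -0.65, beside -0.33 for all genes. CAPZB, a subunit of the capping protein, had 542.8 CPM on day 3 and 265.6 later, a ratio of -1.0. EZR (ezrin, which ties filaments to the membrane) was at 273.9 and 142.0 CPM, a ratio of -0.90, and VIM had -0.88. Myosin II light chains were lower too, with MYL12A at 1322.4 and 747.5 CPM (-0.81) and MYL6 at 1330.8 and 784.9 CPM (-0.75). ACTB, at -0.31, and ACTR2, an Arp2/3 subunit, at -0.26, were not called. ARPC1A was the only member above 0, at 0.45.

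How many of these were called depended on the scaling. With TMM factors 9 were lower and 1 (ARPC1A) higher, where 9.83% and 10.2% of all genes were. With median-of-ratios factors 7 were lower and 1 higher, where 8.63% and 10.7% of all genes were. With scaling on named genes without ribosomal protein, mitochondrial and hemoglobin genes 2 (CAPZB and EZR) were lower and 1 higher, where 4.50% and 13.8% of all genes were. CAPZB and EZR were thus called under each of the 4 scalings. In the wider lists, LMNA (-1.29) and ARPC5L, an Arp2/3 subunit (-1.23), were lower on day 20, and LIMK2, a kinase that inactivates cofilin (1.01), was higher.

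The make-up of the transferred sort also differed between days. On day 3 it held 1124 cells named effector, 2687 in transition and 123 naive-like, and on day 20 it held 57 in transition and 985 naive-like, with no group of 50 effector cells. Within the naive-like cells alone, a contrast added after values were seen, 1 member was called higher on day 20, ARPC1A at 0.69, where 8.62% of all tested genes were, and 1 lower, MYH9 (the heavy chain of non-muscle myosin II) at -0.76, where 6.71% were. The member median there was -0.16, beside -0.07 for all genes. Ribosomal protein genes took 38.8% and 39.5% of the UMIs of these naive-like cells. The member share was 2.14% and 1.95% in naive-like cells, and 2.76% and 2.38% in cells in transition. Over named-gene UMIs it was 4.53% and 4.40%, and 5.16% and 4.89%. Ratios between days were not taken for the cells in transition, and the part of the make-up in the difference between days was not tested.

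**Figure D3:**
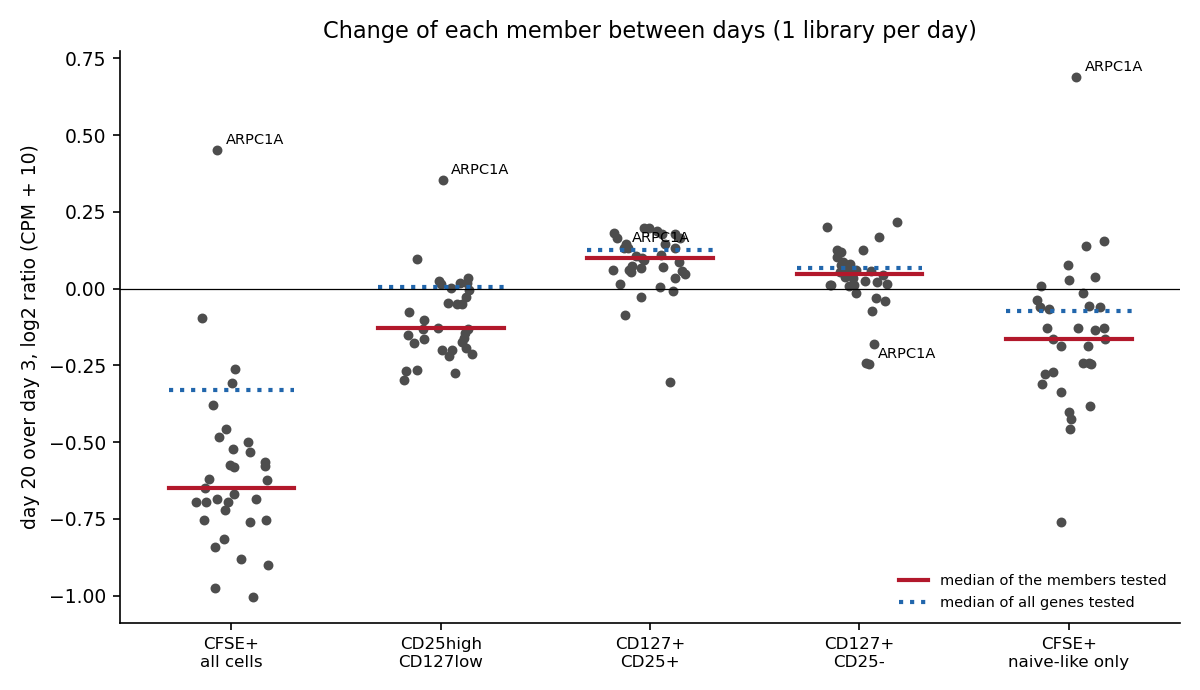
Log2 ratio of day 20 over day 3 (y axis, CPM + 10) for each of the 33 members (points) in the 4 sorts and in the transferred naive-like cells alone, with the median of the members tested (red) and of all genes tested (blue, dotted). In the CFSE+ sort the member median is -0.65 and only ARPC1A (0.45) is above 0, and in the transferred naive-like cells the member median is -0.16.

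In the other sorts no member was called between days. For Treg-gate cells 9.65% of all tested genes were higher and 0.809% lower, and the member median was -0.13, beside 0.01. For double-positive cells the shares were 0.0562% and 4.89%, with a member median of 0.10 beside 0.13. For conventional cells they were 0.0572% and 0.744%, with a median of 0.05 beside 0.07. In the double-positive sort MYL6 (-0.30) lay farthest from 0, and in the conventional sort ARPC1A (-0.25).

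Within the Treg-gate library the authors' classes set endoTreg cells against Tconv cells of the same library. How the classes were made is not given in the sources used here, and they may rest on these genes, so the differences are descriptions. EndoTreg cells had 5 members called higher of 32, where 3.47% of all tested genes were, and 0 lower, where 0.968% were. ACTB had 8575.4 CPM against 5038.1 on day 3 and 7627.4 against 4461.9 on day 20, a ratio of 0.77 each time. For ACTG1 the levels were 2743.7 against 1508.8 and 2456.6 against 1225.9 CPM (0.86 and 1.0). PFN1 (profilin, which feeds monomers to growing ends) was 0.65 and 0.66 higher, and ACTR3, an actin-related core subunit of Arp2/3, 0.63 and 0.70. TPM4 was at 73.9 against 28.2 CPM and 61.9 against 20.1 CPM (1.13 and 1.26). The member medians were 0.30 and 0.36, beside 0.17 and 0.14 for all genes.

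The same 5 genes, and none in the other direction, were called in the double-positive library, where 6.83% of all tested genes were higher and 1.39% lower. TPM4 there had 83.8 against 20.9 CPM and, on day 20, 103.9 against 19.5. Under named-gene scaling only ACTB, ACTG1 and TPM4 were called there, where 3.07% of all genes were higher. Without doublet-like cells all 5 were, where 5.62% of all genes were. Of the double-positive endoTreg cells 5.88% and 11.6% were doublet-like, against 3.18% and 1.96% of the Tconv cells. Among genes outside the members, MYO1G, a class I myosin (0.71 and 0.83), and CORO1B, a coronin (0.64 and 0.61), were called higher in the Treg gate. In that library ACTB, ACTG1 and TPM4 kept the call under each other scaling and without doublet-like cells, and PFN1 and ACTR3 did not. Doublet-like cells made up 8.76% and 7.25% of endoTreg and 4.76% and 1.84% of Tconv cells there. Of the Treg gate on day 3, 2037 of 3347 cells carried the Tconv class. Between these Tconv cells and those of the conventional sort 0 members were called in either direction, where 0.824% of all tested genes were called each way, and named-gene scaling gave 1 (VIM, higher).

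The widest spread among named cells lay between endogenous effector and naive-like Tregs of the Treg-gate library. The 33 members took 4.48% of UMIs in effector cells on day 3 and 3.69% on day 20, and 2.05% and 1.64% in naive-like cells. The names were given by the authors to these same cells, from genes that may include the members, so the difference is a description of those names. Effector cells numbered 461 and 444 and naive-like cells 798 and 412. Median UMIs per cell were 3363 and 2457.5 in effector and 3196.5 and 2712.5 in naive-like cells. Ribosomal protein genes took 29.4% and 31.5% of effector UMIs and 43.6% and 43.5% of naive-like UMIs, and 11.9% and 11.3% of effector cells were doublet-like, against 6.64% and 3.16%.

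Of the 33 members, 28 were called higher in effector cells, where 33.2% of all tested genes were, and 0 lower, where 3.15% were. The member medians were 1.0 and 0.94, beside 0.51 and 0.44 for all genes. TPM4 had 160.6 CPM in effector and 19.7 in naive-like cells of day 3, and 103.4 and 16.6 later (2.52 and 2.09). VIM was at 3326.4 against 850.2 CPM and 3015.1 against 604.0 CPM (1.96 and 2.30). COTL1, a coactosin-like filament binder, was at 1159.5 against 428.1 CPM and 920.1 against 271.8 CPM (1.42 and 1.72). These 3 had the largest smaller ratio of both days among the members.

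Of the monomer genes, ACTG1 was 1.36 and 1.63 higher in effector cells, PFN1 1.35 and 1.39, ACTB 1.20 and 1.16 and CFL1, which severs filaments, 0.76 and 0.73. The Arp2/3 subunits ARPC1A, ARPC2, ARPC3, ARPC4, ACTR2 and ACTR3 were all called, from 0.81 for ACTR2 to 1.34 for ARPC4 and ACTR3 on day 3. Both membrane linkers were called, EZR at 1.17 and 1.06 and MSN (moesin) at 1.0 and 0.94. Among members not called, MYH9 was 0.76 higher on day 3 and 0.18 on day 20, and WAS 0.53 and 0.49. ACTN1 (alpha-actinin 1) was the only member below 0, with 37.9 CPM against 52.7 and later 32.97 against 53.3 (-0.39 and -0.56).

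The scale sets how many of the 28 stand out. TMM factors moved the median gene by -0.44 and -0.38, and 10 members were then called higher, where 9.22% of all genes were, and 1 lower, ACTN1, where 14.3% were. The 10 were ACTB, ACTG1, PFN1, COTL1, VIM, TPM4, ARPC4, ACTR3, WDR1 and EZR, of which WDR1 helps cofilin take filaments apart. With median-of-ratios factors 13 were higher, where 9.61% of all genes were, and with named-gene scaling 11, where 8.93% were. ACTN1 was lower in both, where 14.2% and 15.5% of all genes were. Over the genes tested before rescaling, the member medians under TMM factors were 0.52 and 0.55, beside 0.07 and 0.06 for all genes. TMSB4X was 0.81 and 0.58 higher, at 33619 against 19211 CPM on day 3, and just missed the call on day 20.

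**Figure D4:**
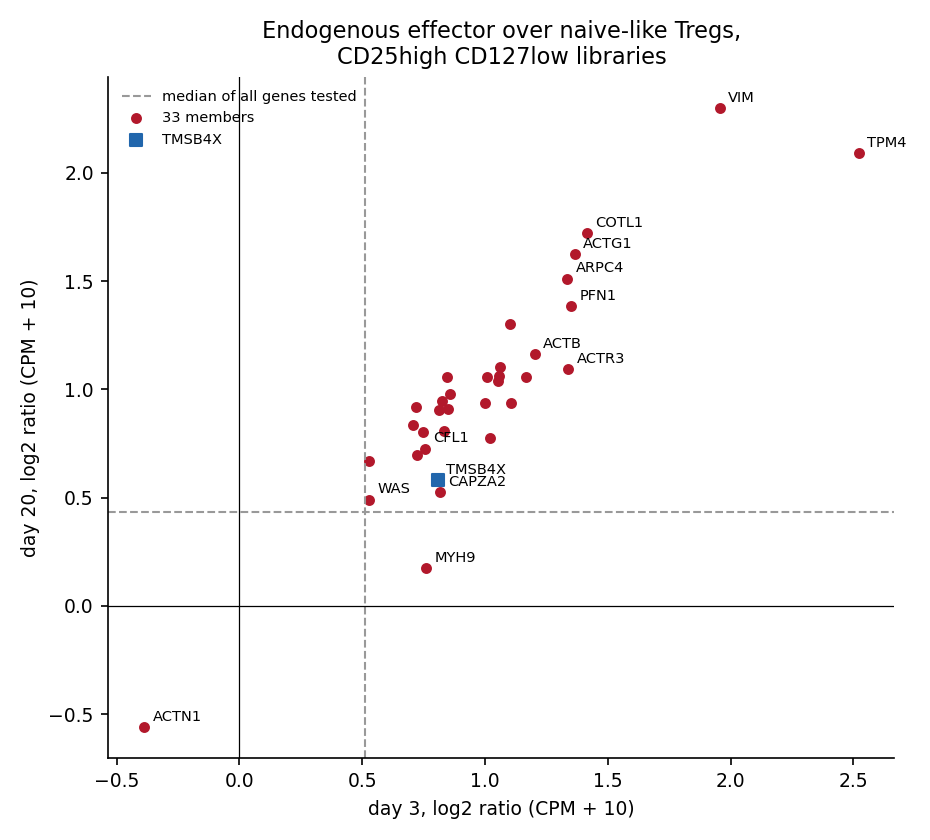
Log2 ratio (CPM + 10) of endogenous effector over naive-like Tregs in the Treg-gate library on day 3 (x axis) and day 20 (y axis), for the 33 members (red) and TMSB4X (blue). Dashed lines mark the all-gene medians of 0.51 and 0.44. TPM4 and VIM lie farthest out and ACTN1 is the only gene below 0 on both days.

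Genes of the wider cytoskeleton lists also stood higher in effector cells, and none was called lower. Among them were 5 of 9 nucleation promoters, 5 of 6 depolymerisation and capping genes, 6 of 11 crosslinking and adhesion genes, 2 of 4 myosins and contractility genes and 5 of 7 microtubule and lamin genes, each beside the 33.2% of all tested genes. LMNA had 310.3 CPM in effector and 20.1 in naive-like cells of day 3, and 227.8 and 16.6 later (3.41 and 3.16). MYO1F, a class I myosin of leukocytes, was at 98.6 against 17.8 CPM and 101.9 against 10.5 CPM (1.97 and 2.45).

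Transferred cells of day 3 fell along the same order by name, with a smaller step, in contrasts added after values were seen. The 33 members took 3.47% of UMIs in transferred effector cells, 2.76% in cells in transition and 2.14% in naive-like cells. Ribosomal protein genes took 26.7%, 33.4% and 38.8%. Effector against naive-like cells gave 24 members called higher, where 36.5% of all tested genes were, and 0 lower, where 4.58% were, with a member median of 0.71 beside 0.44. EZR (1.44), TPM4 (1.41), ACTR3 (1.10) and LCP1 (1.05) had the largest ratios, and these 4 alone were called under TMM factors, where 13.6% of all genes were higher. Cells in transition had 4 called higher than naive-like cells, ACTR3, CAPZB, TPM4 and EZR, where 12.1% of all tested genes were, and under TMM factors 2 (TPM4 and EZR), where 7.19% were, and 1 lower (MYH9), where 2.52% were.

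**Figure D5:**
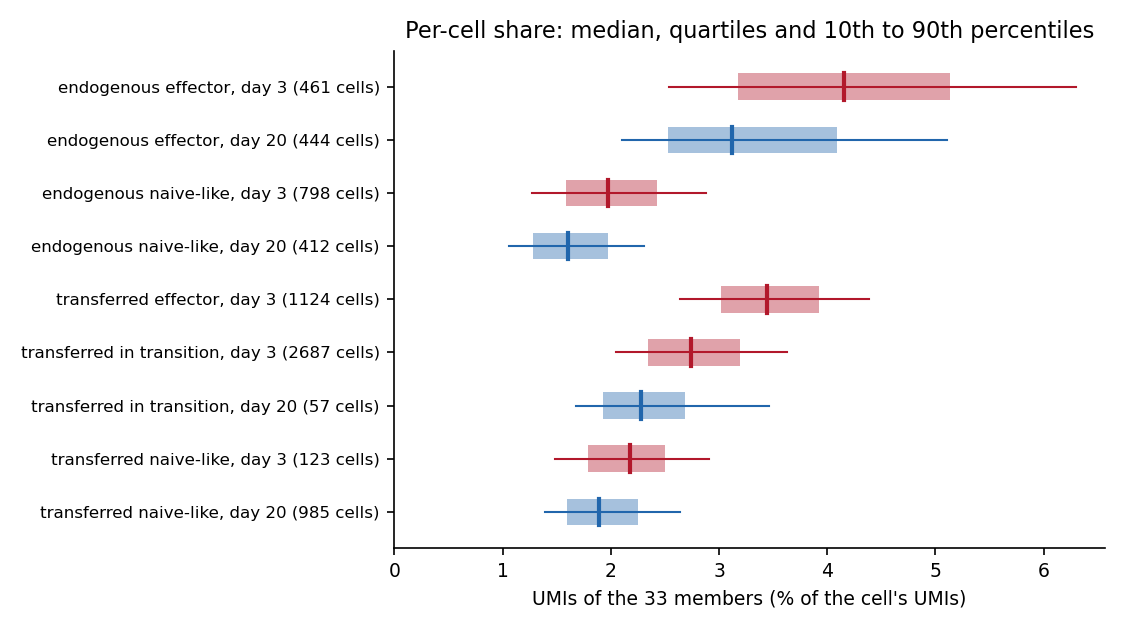
Share of each cell's UMIs taken by the 33 members (x axis, percent) by finer name and day, with the median (line), the quartiles (box) and the 10th to 90th percentiles (whisker). Cells named Unk1 or Unk2 and the Treg-gate cells named transferred naive-like are not drawn. Endogenous effector cells of day 3 have a median of 4.15% and naive-like cells 1.97%, and the transferred cells of day 3 lie at 3.45% (effector), 2.74% (in transition) and 2.18% (naive-like).

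Effector cells of the 2 origins differed in which members were high. On day 3, transferred effector cells had 6 members called lower than endogenous effector cells, where 8.45% of all tested genes were, and 3 higher, where 15.8% were. VIM was at 1484.6 against 3326.4 CPM (-1.16), ACTB at 6800.4 against 13161 CPM (-0.95) and ACTG1 at 2198.3 against 4419.2 CPM (-1.0). ARPC1A was at 264.0 against 606.8 CPM (-1.17), COTL1 at 571.4 against 1159.5 CPM (-1.01) and TPM4 at 85.1 against 160.6 CPM (-0.84). Both actin genes and vimentin were thus lower in the transferred cells, together with an Arp2/3 subunit and 2 filament binders.

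LCP1 was at 615.3 against 377.7 CPM (0.69), WAS at 264.3 against 162.4 CPM (0.67) and ACTN1 at 68.1 against 37.9 CPM (0.71), all higher in the transferred effector cells. Under TMM factors, which moved the median gene by -0.23, 8 members were lower, the same 6 with PFN1 and WDR1, where 14.2% of all genes were, and 0 higher, where 6.63% were. With named-gene scaling the 6 were lower, where 9.78% of all genes were, and LCP1 and WAS higher, where 11.9% were. Among naive-like cells of day 20, transferred cells had 3 members called higher than endogenous cells, ARPC4 (0.68), LCP1 (0.67) and CAPZA1, a capping protein subunit (0.66), where 13.7% of all tested genes were, and 0 lower, where 5.72% were. None of the 3 was called under TMM factors.

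Among conventional cells, the member share separated 2 clusters of the conventional library. Cluster 5 had 3.45% on day 3 (549 cells) and 3.34% on day 20 (612 cells), and cluster 6 had 1.31% (1168 cells) and 1.41% (1289 cells). Clusters 7, 9 and 10 of that library lay between, from 1.79% to 2.11%. The authors' clusters may likewise rest on these genes, and setting cluster 5 against cluster 6 was chosen after values were seen, so this is a description. Ribosomal protein genes took 31.4% and 30.6% of UMIs in cluster 5 and 47.6% and 47.2% in cluster 6. Depth differed as well, with 983634 and 983420 UMIs in cluster 5 and 3080437 and 3101337 in cluster 6. Cells of cluster 5 thus had fewer UMIs each on both days. The 4 NK cell markers (NCR1, KLRF1, KLRD1 and TYROBP) summed to 200.3 and 153.6 CPM in cluster 5 and 120.8 and 121.6 CPM in cluster 6, and their part in the member levels was not tested.

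Cluster 5 was above cluster 6, by 1.5-fold or more each day, in 28 of 32 members, where 41.6% of all tested genes were, and below it in 2, where 8.26% were. MSN had 372.1 CPM in cluster 5 and 99.99 in cluster 6 on day 3, and 381.3 and 95.4 later (1.80 and 1.89). PFN1 was at 2303.7 against 714.5 CPM and 2339.8 against 756.1 CPM (1.68 and 1.62). ACTB was at 11911 against 3732.3 CPM and 10684 against 3961.2 CPM (1.67 and 1.43), against 13161 and 10341 CPM in endogenous effector Tregs.

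The 2 members below were COTL1, at 172.8 against 310.4 CPM and 204.4 against 341.5 CPM (-0.81 and -0.71), and ACTN1, at 27.5 against 71.1 CPM and 18.3 against 74.2 CPM (-1.11 and -1.57). COTL1 thus stood low in cluster 5 and high in endogenous effector Tregs, while ACTN1 was low in both. With named-gene scaling 16 members were above, where 15.2% of all genes were, and the same 2 below, where 22.1% of all genes were. In the wider lists, levels of MYO1F were 133.2 in cluster 5 and 1.62 CPM in cluster 6 on day 3, then 114.9 and 2.90 CPM, and LIMK2 was at 32.5 against 97.1 CPM and 32.5 against 111.6 CPM.

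Clusters high in VIM were not always high in ACTB. In the conventional library VIM was at 350.9 CPM in cluster 6, 1327.7 CPM in cluster 5 and 1497 CPM in cluster 9 on day 3, whereas ACTB was at 4261 CPM in cluster 9. In the double-positive library cluster 3 was highest in both on day 3, with 2850.4 CPM of VIM and 10353 CPM of ACTB. Monocyte markers summed to 182.1 CPM in its 140 cells and to 4.13 to 10.1 CPM in the other clusters. Doublet-like cells made up 9.29% of it and 1.94 to 4.57% of the others. The part of such cells in these levels was not tested. VIM in the double-positive library was at 1994.0 CPM in cluster 8 and 1981 CPM in cluster 9 on day 3, and at 1644 and 1845 CPM on day 20. ACTB was at 3833 and 3884 CPM in these clusters on day 3, below the 4661 CPM of cluster 7. COTL1 was low in cluster 8 of that library as well, with 284 CPM on day 3 and 184 later, against 515 and 545 CPM in cluster 7.

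Pairs of related genes were not used in the same proportion by every group. ACTB gave 83.4% and 82.6% of the UMIs of ACTB and ACTG1 in conventional cells on day 3 and day 20, and 73.3 to 76.9% in the other 6 libraries. TPM3 gave 92.5% (90.3 to 94.4) and 92.8% (89.0 to 95.6) of the UMIs of TPM3 and TPM4 in endogenous naive-like cells, and 75.8% (73.2 to 78.3) and 78.4% (75.01 to 81.5) in effector cells. In transferred effector cells of day 3 TPM3 gave 86.8% (85.3 to 88.2). MSN gave 53.4% and 52.3% of the UMIs of MSN and EZR in conventional cells, and 43.6% and 49.4% in CFSE+ cells. It was also below EZR in the Treg gate (1625 against 1813 UMIs, then 937 against 1134). The same held in double-positive cells (1354 against 1633 UMIs, then 1557 against 2071), so this is not particular to the CFSE+ sort. RAC1, set beside RAC2 as its relative, gave 24.2% and 22.0% of their UMIs in CFSE+ cells and 16.5 to 18.4% elsewhere. CAPZA1 with CAPZA2 and MYL12A with MYL12B ranged over the 8 libraries from 59.2 to 62.3% and from 61.8 to 67.1% for the first of each pair. By finer name MYL12A gave 70.5% (68.9 to 72.1) in endogenous naive-like cells of day 3 and 61.2% (58.1 to 64.2) on day 20, and the MYL12 genes are near-identical copies between which reads may have been split.

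The variance of ACTB counts, given each cell's depth, was 3.49 to 10.8 times that of counting alone over the 8 libraries, lowest in CFSE+ cells of day 20 and highest in the Treg gate of day 3. Expressed as a coefficient of variation beyond counting, ACTB had 44.3% and 46.2% in the CFSE+ libraries and 60.5 to 74.6% in the other 6. VIM had 48.8% and 55.0% in the CFSE+ libraries and 70.2 to 98.4% in the others, and PFN1 27.8% and 25.8% against 44.0 to 62.3%. Of the 4 sorts, CFSE+ libraries were thus the most even in these 3 genes on both days. They were mostly of the transTreg class (4079 of 4142 cells, then 1064 of 1149), whereas the Treg gate mixes classes. The spread of single genes was not taken within classes. The per-cell share of the 33 members had an SD of 0.53 percentage points in CFSE+ cells of day 20, of which counting gives 0.28, and of 1.15 in Treg-gate cells of day 3, of which counting gives 0.29. On day 3 this SD was 0.76 in CFSE+ cells and 0.76 in double-positive cells. By class on day 3 it was 0.75 in transTreg cells and 1.45 in endoTreg cells of the Treg gate. In Tconv cells it was 0.76 in the Treg gate, 0.60 in the double-positive and 1.06 in the conventional sort. Among naive-like cells of day 20 it was 0.49 in transferred and 0.51 in endogenous cells.

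Across cells of a library, the deviations of ACTB and ACTG1 counts from those expected at each cell's depth had a median Pearson correlation of 0.58 over the 8 libraries, from 0.41 to 0.73. ACTB with TMSB4X had 0.55, with PFN1 0.50 and with CFL1 0.44. The 1149 to 4751 cells behind each value share a library and its RNA, ACTB and ACTG1 may share reads, and these values are descriptions with no test. ACTN1 and VIM had a median of -0.02, the lowest of all pairs of members, which in sparse counts is no finding.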

How the data were processed

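Per the submitters' processing notes the authors ran Cell Ranger 2.1.1. Genome build, annotation and any cell filter were not given in the sources used. The authors deposited whole counts of UMIs by gene and cell, unscaled as far as the files show, and column sums match the deposited cell totals in 25397 of 25397 cells (67627231 UMIs). Class, cluster number and finer name of each cell were used as deposited, and groups of at least 50 cells were kept. Counts were summed over the cells of a group and divided by the group's total. The 10 CPM added before taking log2 ratios pulls those of low genes toward 0. The depths of 2992787 to 12149559 UMIs give narrow counting intervals (exact Poisson for counts, exact Clopper-Pearson for shares, 95%), and no interval covers the difference between animals or libraries.

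Members, roles, gene lists and comparisons were chosen with earlier results of these data known. Contrasts of transferred finer names, of classes across sorts and in the double-positive library, and of clusters 5 and 6 were added after values were seen. Every member may be named, and of the other cytoskeleton genes at most 2 per direction and comparison, those whose ratio on the weaker day was largest. The comparison of CFSE+ with conventional cells is an exception, where every listed gene called is named. Where a symbol had several rows, the one with most UMIs was used. Values of some members and listed genes are not reported here.

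No cell was removed and doublets were not called. In an alternative, 1059 doublet-like cells were left out, those above 2 times their library's median UMIs or with 3 or more UMIs of markers of platelets, monocytes, B cells or red cells. Other alternatives were TMM factors (edgeR 4.0.16) and median-of-ratios factors (DESeq2 1.42.0), both in R 4.3.3 and for scaling only, totals over named genes without ribosomal protein, mitochondrial and hemoglobin genes, pseudocounts of 1 and 30 CPM, no minimum CPM, a 2-fold call, the mean of per-cell CPM, cells thinned to 1000 UMIs and the class each sort stands for (transTreg, endoTreg, Tconv). Adding TMSB4X was chosen after the data were seen. The calling code (Python 3.11.15) was tested on simulated data.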

Additional observations from a re-analysis of the deposited data

Results flagged for a closer look

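For 3 members the CFSE+ sort stood above another sort on day 3 and below it on day 20, by at least 1.25-fold each time, a threshold chosen after values were seen. With 1 library per group, the difference between days was not tested. CAPZB, a subunit of the capping protein, had log2 ratios of 0.39 and -0.42 against the Treg gate and of 0.67 and -0.46 against conventional cells. TPM4, a tropomyosin, had 0.34 and -0.37 against the Treg gate. COTL1, the coactosin-like filament binder, had 0.41 and -0.41 against conventional cells. The CFSE+ libraries are shared by these comparisons, and their ribosomal share was 31.6% on day 3 and 39.3% on day 20. Under TMM, median-of-ratios or named-gene scaling, none of the 4 patterns reached 1.25-fold on day 3. CAPZB against conventional cells then had 0.24 to 0.32 on day 3, and CAPZB and TPM4 against the Treg gate 0.05 to 0.09. COTL1 had -0.02 to 0.06. On day 20 the 4 ratios lay between -0.38 and -0.60 under these scalings.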

How the results depend on the processing

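No paired analysis was possible because each group has 1 library. In CFSE+ cells against the Treg gate 1 member was lower, 0 at 2-fold and 2 in transTreg against endoTreg cells. In the Treg gate against conventional cells 2 members were higher, 1 under TMM, median-of-ratios or named-gene scaling, without doublet-like cells or with the mean of per-cell CPM, 0 at 2-fold and 5 in endoTreg cells of the first against Tconv cells of the second. In double-positive cells 1 was higher and 0 at 2-fold. For endoTreg against Tconv 5 were higher, 3 under each other scaling, without doublet-like cells or with per-cell means and 1 at 2-fold. For effector against naive-like cells 28 were higher, 10 under TMM, 13 under median-of-ratios and 11 under named-gene scaling, 14 at 2-fold, and 1 was lower under each of these scalings against 0. Between days in CFSE+ cells 19 were lower, 9 under TMM, 7 under median-of-ratios and 2 under named-gene scaling, 1 at 2-fold, and 1 was higher under each of these scalings against 0. The cause was not tested. Fewer genes can pass at 2-fold. No share of all genes is given here for the 2-fold calls, the per-cell means or endoTreg against Tconv cells of another sort. Those counts therefore have no background and are not results about the members.

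Member shares are given in the order CFSE+, Treg gate, double-positive and conventional on day 3, then day 20. As medians over cells they were 2.91, 2.09, 1.85 and 1.76%, then 1.92, 1.93, 1.97 and 1.85%. Over named-gene UMIs they were 5.31, 5.46, 4.79 and 4.71%, then 4.45, 5.04, 4.65 and 4.57%, so on day 3 the Treg gate was then above CFSE+ cells. Without the 2 members with most UMIs they were 2.19, 1.61, 1.38 and 1.27%, then 1.40, 1.465, 1.46 and 1.31%. With TMSB4X they were 4.99, 4.62, 3.91 and 3.84%, then 3.54, 4.15, 4.19 and 4.004%. Without doublet-like cells they were 2.97, 2.41 and 1.99% for the first 3 sorts on day 3, and on day 20 2.09% in the Treg gate and 2.08% in double-positive cells. No ratio of a called member changed sign under any alternative run. Under TMM factors 31 of these ratios were short of 1.5-fold and 25 were not, under named-gene scaling 36 and 20, and without doublet-like cells 4 and 52. With a pseudocount of 1 CPM or no minimum CPM all 56 kept to 1.5-fold.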
